A study of Mus musculus with 20 samples.

Results

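The imprinted domain of distal mouse chromosome 7, which runs from H19 to Phlda2, was examined in peak lists of chromatin immunoprecipitation followed by sequencing (ChIP-seq) from mouse embryonic fibroblasts. Its members here are the peaks that overlap chromosome 7 from 149700000 to 150800000 of the mm9 build, 1.1 Mb in all. The 12 deposited lists hold 1324083 peaks, of which 1176 lie in this domain. The domain is defined by position alone, though it was chosen with earlier results of these data known. The fibroblasts came from C57BL/6 embryos at E13.5 and were used at passage 4 while dividing asynchronously. Wild-type cells (WT) were compared with Rb1L/L cells, which carry the L allele of Rb1 on both chromosomes and so have an altered LXCXE-binding cleft in the retinoblastoma protein pRb. Each genotype has 2 libraries of H3K27me3, 2 of TFIIIC (antibody TFIIIC-220), 1 of CAP-D3 and 1 of CAP-H2, the last of which are parts of condensin II. The other 8 of the 20 samples are inputs with no peak list. All groups share the strain, the embryonic age and the passage. Fixation differs by antibody, with formaldehyde alone for TFIIIC and EGS and formaldehyde for the others. Nothing in the labels ties replicates to separate cultures, so p-values cover only the variation among these libraries, possibly technical in part. Read numbers behind the lists are unknown, which limits each comparison of peak numbers between libraries.

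Imprinted genes are transcribed from either the maternal or the paternal copy. At the H19 end of the domain, H19, a long noncoding RNA, is transcribed from the maternal copy, and Igf2, a fetal growth factor, from the paternal copy. Toward the Phlda2 end, Kcnq1ot1 is a long noncoding RNA transcribed from the paternal copy within the potassium channel gene Kcnq1, and the copy that makes it is silenced over neighbours such as Cdkn1c, an inhibitor of cell division, and Phlda2, which restrains placental growth. H3K27me3, set by Polycomb repressive complex 2, marks silenced chromatin of this kind, TFIIIC is the factor that recognises tRNA genes for RNA polymerase III and also binds elsewhere, and condensin II shapes chromosomes. Peak lists do not part the 2 parental copies, so each peak is a sum over both.

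The order of the genes is known, but their places on mm9 are not given in the sources used here. In RefSeq (GRCm38.p6) the members follow one another as H19, Igf2, Ins2 (an insulin gene), Ascl2 (a transcription factor of the placenta), Kcnq1 with Kcnq1ot1 inside it, Cdkn1c and Phlda2. Th, the first enzyme of catecholamine synthesis, lies between Ins2 and Ascl2. Tspan32, Cd81, Tssc4 and Trpm5 follow Ascl2, and Slc22a18 stands between Cdkn1c and Phlda2. Lsp1, Tnnt3, Mrpl23 and Nctc1 come before H19, and Nap1l4, Tnfrsf23 and Osbpl5 come after Phlda2. All 21 genes were found in that annotation, which is of another build, so no peak below is assigned to a gene.

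Because the study concerns promoters, the 150 bases before a start of the members are shown for the genes of the H19 end (Igf2, at its CpG-poor and CpG-rich starts, and Ascl2) and of the Phlda2 end (Kcnq1ot1 and Phlda2). They are RefSeq sequences of GRCm38.p6 on the gene's own strand, written 5′ to 3′, with every CpG in capitals, since CpG-rich starts are the usual places of Polycomb marks and of imprinted methylation.
Igf2, start 1: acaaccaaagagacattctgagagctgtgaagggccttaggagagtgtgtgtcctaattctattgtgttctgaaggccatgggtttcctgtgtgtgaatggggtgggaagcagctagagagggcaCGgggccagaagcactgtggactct
Igf2, start 3: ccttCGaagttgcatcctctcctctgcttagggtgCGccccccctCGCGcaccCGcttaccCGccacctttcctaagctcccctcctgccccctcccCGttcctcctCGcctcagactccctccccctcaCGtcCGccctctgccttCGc
Ascl2: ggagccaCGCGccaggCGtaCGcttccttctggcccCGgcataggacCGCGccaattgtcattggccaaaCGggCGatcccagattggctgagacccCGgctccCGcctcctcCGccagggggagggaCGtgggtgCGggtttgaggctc
Kcnq1ot1: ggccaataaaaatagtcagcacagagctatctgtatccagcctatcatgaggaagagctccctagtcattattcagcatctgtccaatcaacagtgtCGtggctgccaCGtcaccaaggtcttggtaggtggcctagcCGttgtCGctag
Phlda2: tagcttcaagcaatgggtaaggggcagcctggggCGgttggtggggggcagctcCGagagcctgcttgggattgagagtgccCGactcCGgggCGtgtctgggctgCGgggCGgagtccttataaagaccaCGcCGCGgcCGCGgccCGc
In the full window of 250 bases before to 50 after the start, the Phlda2 promoter holds 26 CpGs and the third Igf2 start 24, while the first Igf2 start holds 2. Ascl2 has 23 and Kcnq1ot1 has 9. The median over 32851 RefSeq promoter windows is 7 CpGs, and 16.9% of them have at least as many as Phlda2. RefSeq windows were matched for 4 of the 8 members, 7 windows in all. The letters GGTTCGA, a core of the B box bound by TFIIIC, were looked for on both strands and occur in 0 of these 7 windows and in 0.910% of all promoter windows, which says nothing about binding outside those letters.

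H3K27me3 peaks lay in 19 of the domain's 22 steps of 50 kb, most of them narrow, with 9 broader regions called in every library. WT libraries 1 and 2 have 46 and 63 peaks in it, and Rb1L/L libraries 1 and 2 have 70 and 80. They cover 42.3, 65.7, 72.6 and 85.1 kb, which is 3.85% to 7.73% of the domain. Both Rb1L/L libraries lie above both WT libraries in number and length. The whole lists hold 24741 and 45979 peaks in WT and 43951 and 56396 in Rb1L/L. Relative to the list, the peaks amount to 1.86 and 1.37 per 1000 in WT and 1.59 and 1.42 per 1000 in Rb1L/L, and the groups overlap. The means are 1.62 ± 0.346 and 1.50 ± 0.120 per 1000 (SD, n = 2 each), a log2 difference of −0.09 (exact permutation p = 1.00, two-sided; the smallest that 2 against 2 allow is 0.33). The sign turned to 0.10 when equal numbers of top-scoring peaks were taken and to 0.13 without WT replicate 1.

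The domain is rich in H3K27me3 against the genome and against the flank beyond its Phlda2 end, but not against the flank on the H19 side. In windows of the same width moved along the genome, the median is 4 to 12 peaks, and 4.54% to 6.86% of windows hold at least as many as the domain. Per Mb, the domain has 41.8, 57.3, 63.6 and 72.7 peaks in WT 1, WT 2, Rb1L/L 1 and Rb1L/L 2. The 1 Mb at lower coordinates, on the H19 side, has 39, 67, 67 and 87, and the 1 Mb at higher coordinates has 16, 20, 19 and 32. The domain is thus 2.27 to 3.35 times as dense as the upper flank and 0.836 to 1.07 times as dense as the lower one. Against both flanks together the mean log2 ratio is 0.46 (two-sided exact sign-flip permutation p = 0.125 over 4 libraries, the smallest possible), and the ratios of WT and Rb1L/L differ by −0.07 (exact permutation p = 0.667). This direction depends on the flank: the mean log2 ratio is −0.11 against the lower flank alone and −0.07 against 500 kb on each side.

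**Figure D1:**
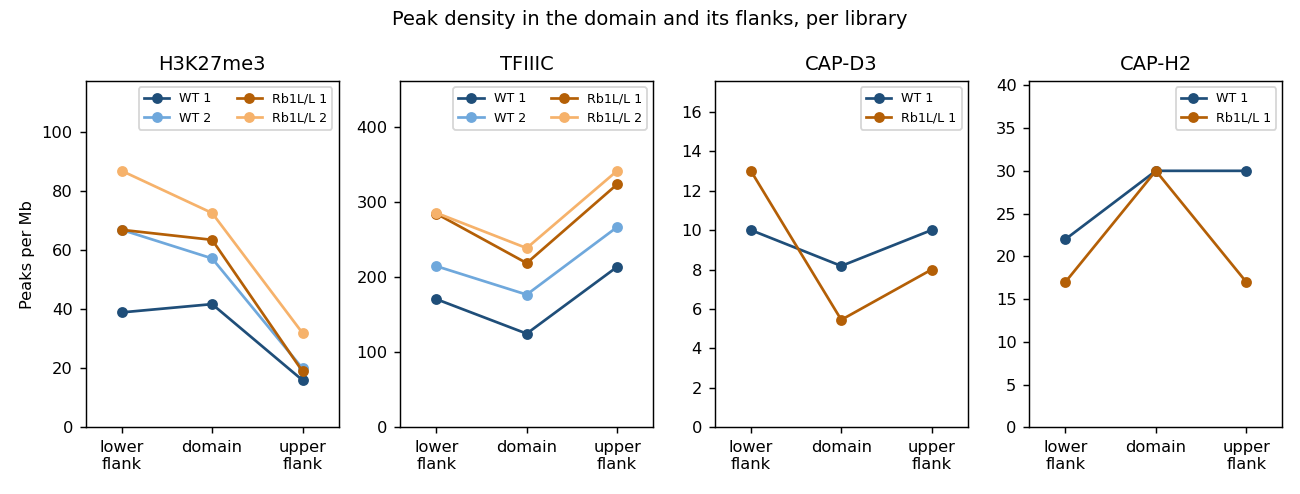
Peaks per Mb (vertical axis, from 0) in the domain and in the 1 Mb below and above it (horizontal axis), 1 line per library. H3K27me3 falls off toward the upper flank in all 4 libraries, and TFIIIC is lowest in the domain in all 4.

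Cut into 22 steps of 50 kb, H3K27me3 was highest near the Phlda2 end, stopped abruptly there, and was missing from a step in the middle. From 150650001 to 150700000 the lists have 8, 10, 12 and 13 peaks (WT 1, WT 2, Rb1L/L 1, Rb1L/L 2), and in the step before it 8, 4, 11 and 8. From 149900001 to 149950000 they have 2, 10, 6 and 7. All 4 lists are at 0 in the last 2 steps, from 150700001 to 150800000, and from 150200001 to 150250000. The edge therefore falls between adjacent steps of 43 and 0 peaks over the 4 libraries. In 11 of the 22 steps every library has a peak. In the genome as a whole 71.0% to 83.5% of such steps are empty, and 0.918% to 1.55% hold as many peaks as the fullest step of the domain in the same library.

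**Figure D2:**
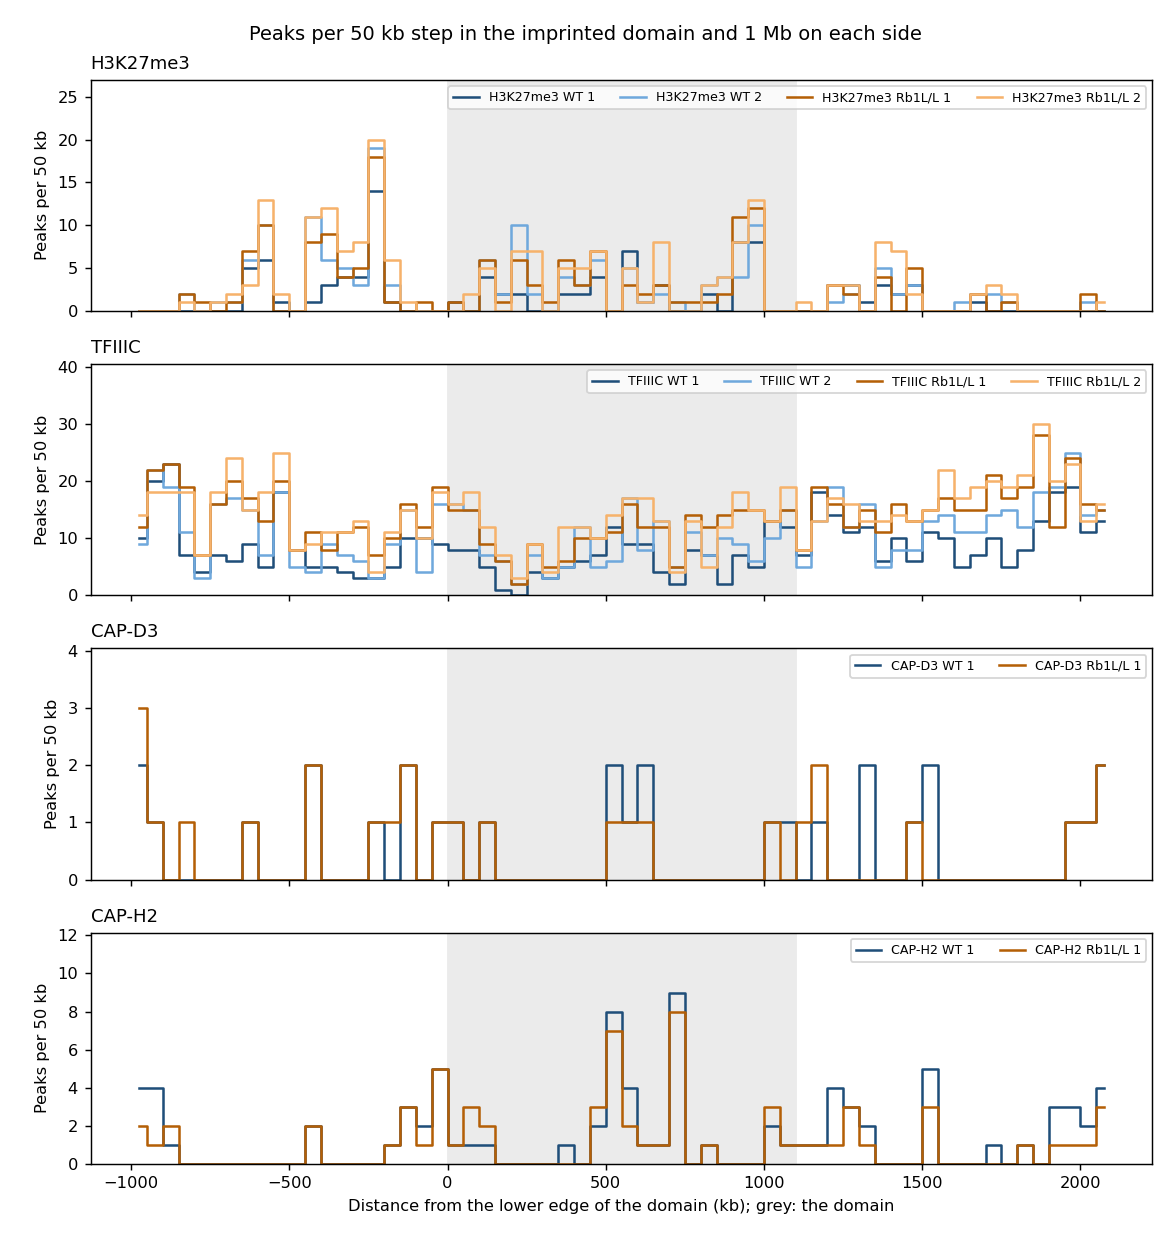
Peaks per 50 kb step (vertical axis) by distance from the domain's lower edge in kb (horizontal axis), 1 line per library and 1 panel per antibody, with the domain in grey. H3K27me3 peaks of the domain end at 1000 kb, CAP-H2 has its summits at steps with 8 and 9 WT peaks, and TFIIIC is spread over nearly the whole interval.

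Merging the 4 lists gave 135 H3K27me3 regions in the domain, of which 9 have a peak in every library (6.67%, exact binomial 95% interval 3.09 to 12.3, against 8.39% over the genome). These 9 are wide, with a median of 3998 bp against 593 bp for the 89 regions found in 1 library, and together they span 49.4 kb. The widest, from 149839439 to 149852129 near the H19 end, is 12691 bp long, and 0.329% of the genome's merged H3K27me3 regions are at least as wide. Its best peak scores, the rank value the authors' peak caller gave, are 2647 and 2232 in WT and 3100 and 2741 in Rb1L/L. It is the only region of the 9 that overlaps a condensin II peak. Such overlap is rare in the whole lists as well. There CAP-D3 of the same genotype overlaps 1.61% to 3.20% of H3K27me3 peaks and CAP-H2 1.39% to 2.37%.

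The other high-scoring regions lie in the middle of the domain and near its Phlda2 end. The region from 150289418 to 150295849 (6432 bp) has the highest score, 2669 and 3198 in WT and 3100 and 3100 in Rb1L/L. From 150149799 to 150158223 (8425 bp) the scores are 2296, 3100, 3100 and 3132. In these 2 regions and the widest, the lowest score of any library is 2232. Closer to that end, the region from 150628342 to 150634368 has 2204, 3100, 3100 and 3100, and the region from 150643703 to 150647175 has 949.1, 1815, 1940 and 1654. Beside them, from 150621749 to 150625746, the scores are 352.2 and 1291 in WT and 3065 and 3142 in Rb1L/L, the widest gap between genotypes among the 9. Scores depend on read depth and on the input, which differ between lists, so this gap is not a measure of enrichment. The remaining 3 are weaker: 149914716 to 149917449 (205.2, 526.8, 894 and 434.9), 150083587 to 150086321 (737.8, 236.1, 1672 and 175.1) and 150677691 to 150680559 (370.3, 286.4, 208.5 and 384). WT and Rb1L/L scores overlap or tie in 7 of the 9 regions, and in the other 2, the widest and the one from 150621749, Rb1L/L is the higher.

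Few H3K27me3 regions followed genotype. In both Rb1L/L and no WT library there are 7 (5.19% of 135, against 5.18% over the genome), with best scores of 179 to 386. In both WT and no Rb1L/L library there are 2 (1.48%, against 0.736% over the genome): 150126101 to 150127132 (188.8 and 154.3) and 150284475 to 150285377 (209.4 and 392.2). The exact binomial 95% intervals of these shares (2.11 to 10.4 and 0.180 to 5.25) hold the genome's values. The highest of these scores, 392, is near the best score of the weakest of the 9 shared regions, 384, and below those of the other 8.

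The share of H3K27me3 peaks was also compared per step with limma over 5633 windows of the genome with a mean of at least 2.5 peaks, of which 11 lie in the domain. At an adjusted p (Benjamini-Hochberg) under 0.05, limma called 0 windows over the genome (0%), 0 of them in the domain, with 252 and 1 at an unadjusted p under 0.05. The domain's window with the smallest p runs from 150250001 to 150300000, with 7 and 5 peaks in WT and 3 and 5 in Rb1L/L. Per 1000 peaks this is 0.283 and 0.109 against 0.0683 and 0.0887, so both Rb1L/L shares are below both WT shares (limma log2 difference −1.11 ± 0.52 SE, adjusted p 0.932). From 149950001 to 150000000, with 0 and 2 peaks in WT and 3 and 7 in Rb1L/L, both Rb1L/L shares are above (1.63 ± 1.04 SE, limma adjusted p 0.932). Windows that part the genotypes this way are 1 of 11 upward and 1 of 11 downward, where the genome has 16.8% and 15.4%. On simulated data the limma test found 0 of the windows changed 2-fold, 13.0% of those changed 3-fold and 41.5% of those changed 4-fold, so a change of those sizes could be missed.

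TFIIIC peaks were frequent throughout the domain and still sparser there than on either side. WT libraries 1 and 2 have 137 and 195 peaks in the domain, and Rb1L/L libraries 1 and 2 have 241 and 263. They cover 103, 161, 231 and 250 kb, from 9.39% to 22.7% of the domain. Both Rb1L/L libraries are above both WT libraries in number and length, as are their whole lists, which hold 200350 and 239960 peaks in WT and 294135 and 301874 in Rb1L/L. The shares of the list are 0.684 and 0.813 per 1000 in WT and 0.819 and 0.871 per 1000 in Rb1L/L. The Rb1L/L values remain the higher ones, by little (means 0.748 ± 0.0912 and 0.845 ± 0.0368, SD, n = 2 each; log2 difference 0.18, two-sided exact permutation p = 0.33, the smallest possible). Without WT replicate 1 the log2 difference is 0.06 and without WT replicate 2 it is 0.31.

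Per Mb, the domain holds 125, 177, 219 and 239 TFIIIC peaks. The lower flank holds 171, 215, 285 and 286, and the upper flank 214, 267, 324 and 342. In every library the domain is the lowest of the 3 stretches. Its density is 0.647, 0.736, 0.720 and 0.761 times that of both flanks together, and each counting interval lies below 1. The mean log2 ratio is −0.48 (two-sided exact sign-flip permutation p = 0.125 over 4 libraries, the smallest possible). With flanks of 500 kb it is −0.21, with library ratios of 0.746, 0.928, 0.852 and 0.941. WT and Rb1L/L ratios differ by 0.10 on the log2 scale (exact permutation p = 0.667). Against the genome the domain is not poor in TFIIIC peaks, as windows of this width have a median of 61 to 90, and 11.7% to 18.3% hold at least as many.

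TFIIIC was lowest in 3 steps, which lie on both sides of the middle of the domain. From 149900001 to 149950000 the lists have 0, 2, 2 and 3 TFIIIC peaks, and this is the only step of the 22 in which a library is at 0. From 150000001 to 150050000 they have 3, 3, 5 and 4, and from 150400001 to 150450000 they have 2, 5, 5 and 4. H3K27me3 has 25, 1 and 2 peaks over its 4 libraries in these 3 steps. The fullest steps over the 4 libraries are the last, from 150750001 to 150800000 (12, 15, 15 and 19), the step from 150250001 to 150300000 (9, 17, 16 and 17) and the second, from 149750001 to 149800000 (8, 15, 15 and 18). As a description over the 22 steps, summed TFIIIC and H3K27me3 peaks have a Pearson r of −0.12 (Spearman rho −0.25), and over the 62 steps with the flanks included −0.43 (rho −0.49). All steps share the same libraries, neighbouring steps are not independent, and fixation differs between these antibodies.

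**Figure D3:**
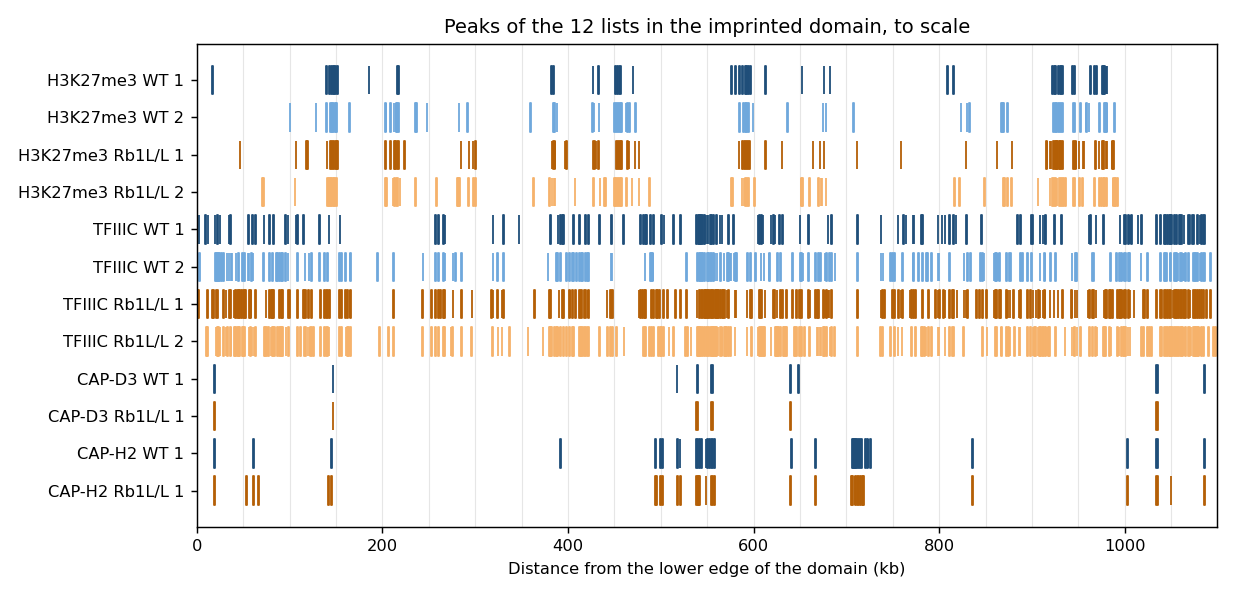
Every peak of the 12 lists in the domain, drawn to scale as a bar at its distance from the lower edge in kb (horizontal axis), 1 row per library. The 9 H3K27me3 regions of every library line up across the 4 rows among many peaks of single rows, and the CAP-H2 group just past 700 kb has no CAP-D3 peak beneath it.

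Merged over libraries, TFIIIC forms 335 regions in the domain, 56 of them in every library (16.7%, exact binomial 95% interval 12.9 to 21.2, against 17.8% over the genome). The last 2 steps, where H3K27me3 is at 0, hold 32 of all 335 regions, 14 of these 56 and 4 of the 5 highest-scoring regions. The region from 150741912 to 150746647 scores 523.1 and 2570 in WT and 1331 and 3100 in Rb1L/L. From 150753456 to 150759173 the scores are 449.3, 799.8, 667.3 and 3100. The widest TFIIIC region, from 150772885 to 150779837 (6953 bp), has 687.9, 2085, 1826 and 2749, and the one from 150759671 to 150762302 has 556.5, 1524, 1454 and 2449. None of these 4 overlaps a condensin II or H3K27me3 peak of any library. For H3K27me3 it follows from their place in steps without such peaks. Most of the domain's 335 TFIIIC regions lack overlap too: 328 overlap no CAP-D3, 312 no CAP-H2 and 267 no H3K27me3. In single TFIIIC lists, CAP-D3 of the same genotype overlaps 1.52% to 4.38% of the domain's peaks, against 0.949% to 2.53% of whole lists. For CAP-H2 this is 5.39% to 10.2% against 3.44% to 5.65%, and for H3K27me3 2.92% to 9.51% against 1.54% to 5.04%. Lack of overlap is thus no more frequent here than in the whole lists. The fifth of the highest-scoring regions, from 150249062 to 150254896 (397.1, 1064, 1762 and 2514), overlaps both condensin II subunits in both genotypes. WT replicate 1 has the lowest score in each of the 5.

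Regions found in both Rb1L/L and no WT library number 36 (10.7%, 95% interval 7.64 to 14.6, against 9.37% over the genome), with best scores of 171 to 1305. The reverse pattern has 3 regions (0.896%, 0.185 to 2.59, against 1.61% over the genome). These are 149771731 to 149772429 (207.9 and 228.1), 150544519 to 150545727 (231.5 and 474) and 150599467 to 150600757 (674.1 and 822.8). Like most TFIIIC regions of the domain, none of them has a condensin II peak. Both shares are near those of the genome.

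The steps just before the H3K27me3 edge held the 2 largest TFIIIC differences between genotypes in the domain, neither of which passed the test. From 150650001 to 150700000 there are 5 and 6 TFIIIC peaks in WT and 15 in each Rb1L/L library, or 0.0250 and 0.0250 against 0.0510 and 0.0497 per 1000. The log2 difference is 0.93 ± 0.28 SE (limma adjusted p 0.450, the lowest of the domain's windows). From 150600001 to 150650000 the counts are 7 and 9 against 15 and 18 (0.56 ± 0.25 SE, limma adjusted p 0.603), and from 150550001 to 150600000 they are 2 and 10 against 14 and 12 (0.95 ± 0.50 SE, limma adjusted p 0.636). In the first 2 of these steps the genotypes do not overlap, and in the third they do, as WT replicate 2 reaches 0.0417 per 1000 against 0.0398 in Rb1L/L replicate 2. Away from the edge, the step from 149850001 to 149900000 has a difference of 0.72 ± 0.53 SE (limma adjusted p 0.729). Rb1L/L shares also lie above WT shares without overlap from 149800001 to 149850000 (0.32 ± 0.31 SE) and from 149950001 to 150000000 (0.27 ± 0.32 SE). The 3 steps before the edge, from 150550001 to 150700000, hold 56 of the 335 TFIIIC regions and 40 of the 135 H3K27me3 regions. They hold 0 condensin II peaks of either subunit, which is common in the domain. Of its 22 steps, 15 have no CAP-D3 peak in either genotype and 9 have no CAP-H2 peak.

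Over the genome, limma called 0 of 32170 TFIIIC windows (0%), with 2665 at an unadjusted p under 0.05. Of these windows 21 lie in the domain, with 0 called and 2 at an unadjusted p under 0.05. Both Rb1L/L shares are above both WT shares in 4 of the 21, where the genome has 17.7%, and below them in 0 of 21, where the genome has 22.4%. The median log2 difference is 0.12 over the 21 windows and −0.02 over all windows tested. The count of calls rests on single libraries, as it rises over the genome when either WT replicate is left out. Such a fit holds 1 WT library, so only effect sizes are given. Without WT replicate 2, 15 of the domain's 21 windows are higher in Rb1L/L and 6 lower, with a median log2 difference of 0.27 (−0.07 over all windows). Without WT replicate 1, 11 are higher and 10 lower, with a median of 0.03 (−0.03 over all windows). On simulated data the test found 0 of the TFIIIC windows changed 2-fold, 10.5% of those changed 3-fold and 40.0% of those changed 4-fold.

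**Figure D4:**
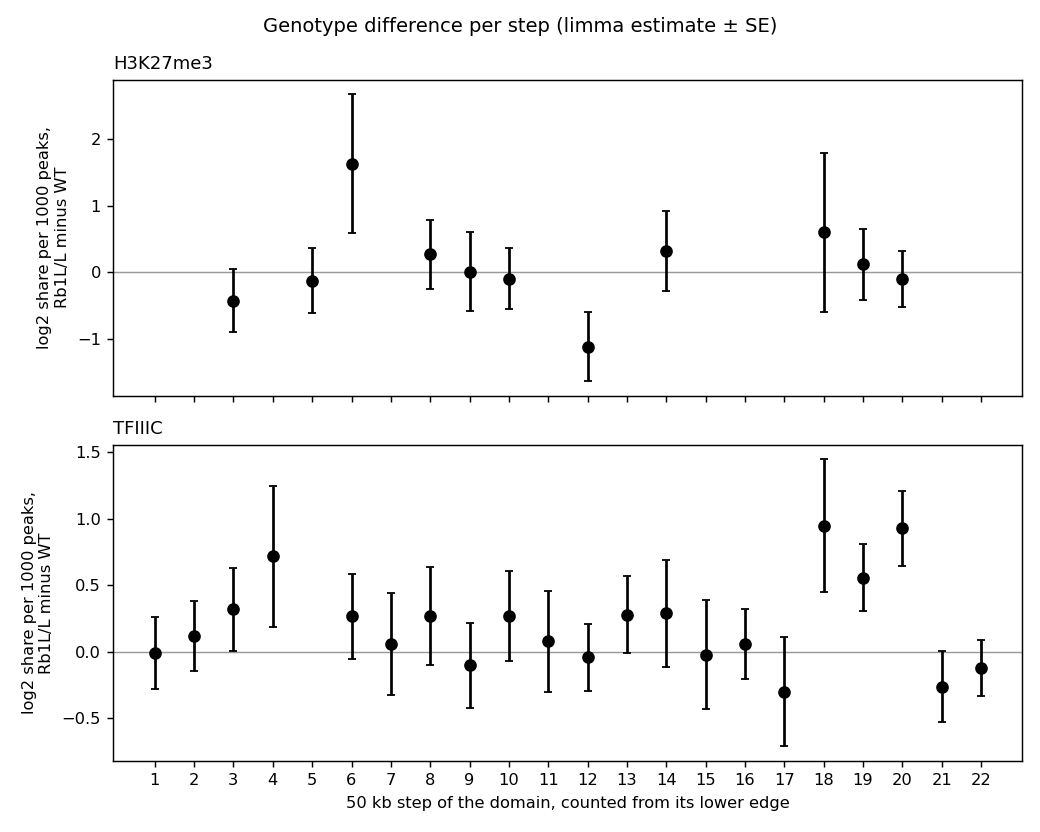
Difference in log2 share per 1000 peaks, Rb1L/L minus WT (vertical axis, limma estimate with its standard error), for each 50 kb step tested, numbered from the lower edge (horizontal axis). For TFIIIC, steps 18 to 20 stand at 0.56 to 0.95 and step 4 at 0.72, and no step passed the adjusted threshold.

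Condensin II had fewer peaks in the domain than H3K27me3 or TFIIIC, and its strongest sites were the same in both genotypes. CAP-D3, found in condensin II and not in condensin I, has 9 peaks in WT and 6 in Rb1L/L. The flanks have 10 and 13 peaks below and 10 and 8 above, and the density relative to both flanks is 0.818 in WT (95% interval 0.328 to 1.88) and 0.519 in Rb1L/L (0.172 to 1.33). Both intervals include 1, so no difference from the flanks was detected. Merged, they are 9 regions, 6 in both genotypes (66.7%, exact binomial 95% interval 29.9 to 92.5, against 43.0% over the genome), 3 in WT alone (33.3%, against 38.5%) and 0 in Rb1L/L alone (against 18.5%). The flanks have 66.7% in both genotypes, 16.7% in WT alone and 16.7% in Rb1L/L alone. The 6 shared regions have best scores of 765 to 3100 and the 3 WT ones 129 to 266. In 15 of the 22 steps neither list has a CAP-D3 peak. Same-width windows of the genome have a median of 6 CAP-D3 peaks in WT and 4 in Rb1L/L. Of these windows 33.2% and 37.9% hold at least as many as the domain. A single library stands for each genotype, so differences between them have no replicate check, and all intervals cover counting error alone.

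CAP-H2, the kleisin subunit of condensin II that bridges its ring, has 33 peaks in each genotype. Below the domain there are 22 in WT and 17 in Rb1L/L, and above it 30 and 17. Relative to both flanks the density is 1.15 in WT (95% interval 0.723 to 1.82) and 1.76 in Rb1L/L (1.06 to 2.94). These intervals take peaks as independent, though 9 of the WT and 8 of the Rb1L/L peaks lie in 1 step. By covered length the ratios are 1.24 in WT and 1.43 in Rb1L/L, and with flanks of 500 kb they are 1.03 and 1.36. Domain numbers are equal, and it is the flanks that have fewer peaks in Rb1L/L, 34 against 52 in WT. Of 41 merged CAP-H2 regions, 23 were found in both genotypes (56.1%, against 53.9% over the genome), 10 in WT alone (24.4%, against 22.9%) and 8 in Rb1L/L alone (19.5%, against 23.2%). Best scores are 96.7 to 3100 for the shared ones, 52.3 to 360 for WT alone and 78.5 to 253 for Rb1L/L alone. Same-width windows of the genome have a median of 15 CAP-H2 peaks in each list, and 16.2% and 16.5% hold at least as many as the domain.

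**Figure D5:**
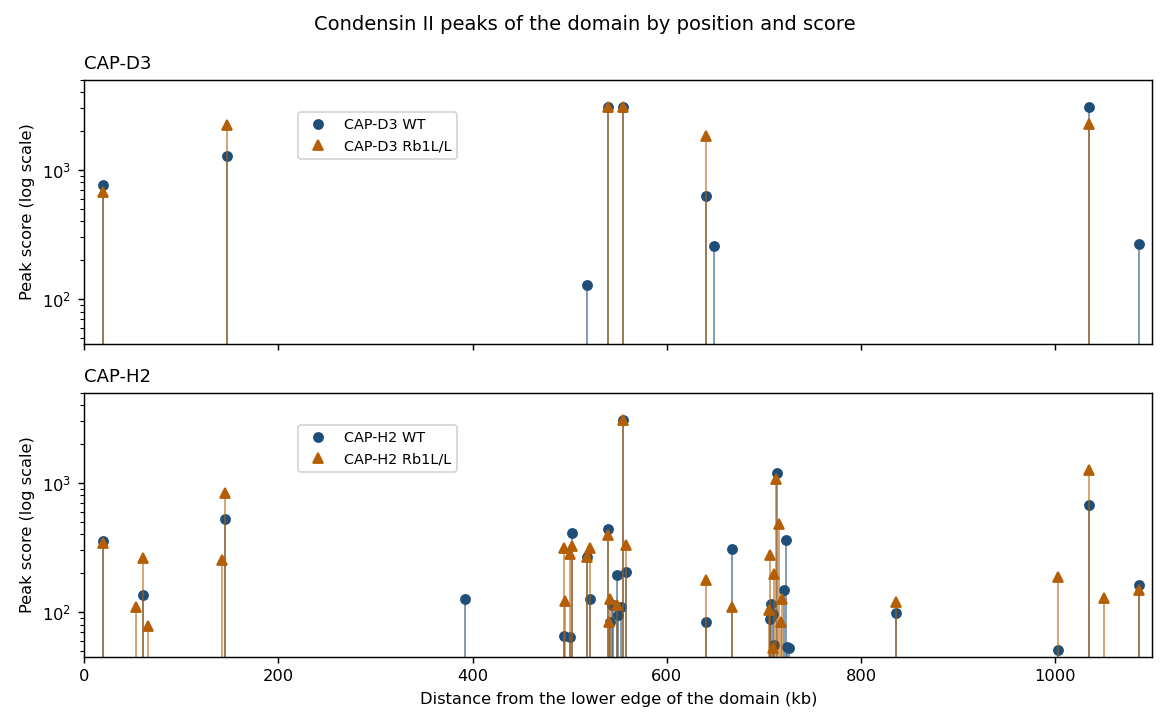
Score of every condensin II peak (vertical axis, log scale) against its distance from the lower edge of the domain in kb (horizontal axis), WT as circles and Rb1L/L as triangles. Most CAP-D3 positions carry both symbols, and CAP-H2 peaks crowd near the middle of the domain and again just past 700 kb.

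The highest scores of both subunits coincide from 150253814 to 150256469. There CAP-D3 and CAP-H2 each have a score of 3100 in WT and in Rb1L/L, and TFIIIC has a peak in all 4 libraries. A second CAP-D3 region with 3100 in both genotypes lies from 150238477 to 150239831, with CAP-H2 at 440.7 in WT and 395.2 in Rb1L/L, again with TFIIIC in all 4. Between and around them the CAP-H2 lists have 8 and 7 peaks from 150200001 to 150250000, the same step that is at 0 for H3K27me3. A weaker CAP-D3 peak in that step, from 150217469 to 150217993 (129.2), was called in WT alone, although CAP-H2 scores there are 268.3 and 268.6.

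Further CAP-D3 sites lie at both ends. Near the H19 end, from 149718710 to 149719766, CAP-D3 scores are 765.2 in WT and 674.3 in Rb1L/L and CAP-H2 scores 353.8 and 344.5. A TFIIIC peak overlaps it in both WT libraries and in neither Rb1L/L library, whose nearest peaks are 382 and 323 bp away. The TFIIIC region that reaches into it, from 149719662 to 149722589, has a peak in all 4 libraries (232.8, 562.3, 715.1 and 276.6). Toward the Phlda2 end, from 150734081 to 150735633, CAP-D3 has 3100 and 2266 and CAP-H2 has 671.4 and 1259. TFIIIC is present there in replicate 1 of each genotype and absent in replicate 2 of each, so it does not follow genotype. From 150785786 to 150786407 CAP-D3 was called in WT alone (265.7), with CAP-H2 in both (161.7 and 148.1) and TFIIIC in all 4 libraries.

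The remaining CAP-D3 regions overlap no TFIIIC peak, and neither does the weaker one from 150217469 to 150217993. From 150339419 to 150340614 the scores are 625.3 in WT and 1845 in Rb1L/L for CAP-D3 and 84.42 and 177.3 for CAP-H2. From 150348174 to 150348698 CAP-D3 was called in WT alone (255.8), and the nearest CAP-H2 peak is 7174 bp away. The CAP-D3 region from 149846262 to 149847209 lies inside the widest H3K27me3 region, with scores of 1285 and 2222. It is the only CAP-D3 region of the domain that overlaps H3K27me3, and it does so in all 4 H3K27me3 libraries. In the whole lists H3K27me3 replicates 1 and 2 overlap 4.36% and 6.08% of CAP-D3 peaks in WT and 7.96% and 6.60% in Rb1L/L. The CAP-H2 peak nearest to this CAP-D3 region, from 149844756 to 149845866 as merged (529.5 and 832.6), lies in the same H3K27me3 region. It is 427 bp away in WT and 456 bp in Rb1L/L.

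CAP-D3 peaks of the domain mostly had CAP-H2, and CAP-H2 peaks mostly lacked CAP-D3. A CAP-H2 peak overlaps 7 of 9 CAP-D3 peaks in WT (77.8%, 95% interval 40.0 to 97.2, against 55.2% of the whole list) and 5 of 6 in Rb1L/L (83.3%, 35.9 to 99.6, against 65.4%). Conversely, 7 of 33 CAP-H2 peaks in WT (21.2%) and 5 of 33 in Rb1L/L (15.2%) overlap a CAP-D3 peak, against 21.7% and 19.8% of the lists. TFIIIC overlaps 14 of 33 WT CAP-H2 peaks with either library (42.4%), and 12 and 11 of 33 in Rb1L/L (36.4% and 33.3%). The lists have 24.0% and 24.5% in WT and 22.1% and 22.2% in Rb1L/L, and the flanks of the domain 50.0%, 46.2%, 41.2% and 44.1%, so the domain is like its flanks in this. TFIIIC cells were fixed with formaldehyde alone and the others with EGS and formaldehyde. By its title, the input of both condensin II libraries of a genotype also serves an H3K27me3 library, replicate 2 in WT and replicate 1 in Rb1L/L. The part of fixation and of shared inputs in these overlaps was not tested.

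The densest group of CAP-H2 peaks stood apart from CAP-D3. From 150400001 to 150450000 CAP-H2 has 9 peaks in WT and 8 in Rb1L/L, more than in any of the 40 flank steps, where the most is 5. Over the genome 0.403% and 0.786% of steps have as many in the same list. The peaks merge into 11 regions within 21730 bp, from 150404838 to 150426567, spaced 60 to 2125 bp apart. Of these 4 were found in both genotypes, 5 in WT alone and 2 in Rb1L/L alone, where the genome has 53.9%, 22.9% and 23.2%. None of the 11 overlaps a CAP-D3 peak of either genotype. In the whole lists 21.7% of CAP-H2 peaks in WT and 19.8% in Rb1L/L overlap one. The main region, from 150410810 to 150417674 (6865 bp), is called as 1 WT peak of 6193 bp with a score of 1188 and as 3 Rb1L/L peaks of 815 to 2645 bp with a best score of 1072. Among merged CAP-H2 regions of the genome 0.451% are at least as wide. It is also the only region of the 11 with a TFIIIC peak, which it has in all 4 libraries, while the step as a whole is poor in TFIIIC (2, 5, 5 and 4 peaks). H3K27me3 has 0, 1, 1 and 0 peaks in this step.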

How the data were processed

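The 12 deposited lists, 1 per immunoprecipitated library, give a position and an unnamed score for each peak. The score is the authors' own and deposited without a column name. Its smallest value is 50.0 to 50.4 and many peaks are tied at 3100. It served for cut-offs and to rank regions by their best score in any library. Scores of different lists are printed side by side but are not a measure of enrichment. Reads were aligned to mm9, and Bowtie2 2.3.0 and MACS 1.4.0rc2 were used, per the submitters' processing notes; their settings, and the depth of each library, are not given in the sources used here. Deeper libraries usually yield more and broader peaks, and without depths no detection limit can be given.

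Groups came from the sample labels. Coordinates were taken as 0-based and are printed 1-based. A peak belonged to the domain if it overlapped it, to a 50 kb step by its midpoint. Overlapping peaks from the lists of an antibody were joined into regions. Ratios to the flanks have exact (Clopper-Pearson) 95% intervals; genotypes were compared with exact permutation tests. Log2 shares per 1000 peaks, with a pseudocount of 0.5 peaks, were fitted with limma 3.58.1 (R 4.3.3) for windows whose mean over libraries reached 2.5 peaks, adjusted by Benjamini-Hochberg over the genome. The test was tested on simulated data. Python 3.11.15, pandas 2.3.3 and scipy 1.17.1 did the rest.

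The domain, the gene list and the tests were chosen with earlier results of these data known. The named regions are the 5 highest-scoring regions per antibody, the widest H3K27me3 and TFIIIC regions, H3K27me3 regions of all 4 libraries, and every region with CAP-D3 or with both condensin II subunits; regions found in 1 genotype and the parts of the CAP-H2 group were named after their values were seen. Gene names and order are from RefSeq GRCm38.p6; no coordinates of that build were used.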

Additional observations from a re-analysis of the deposited data

How the results depend on the processing

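Of 90 alternatives over 16 values, 75 kept the direction, or the count or share within its limits, 11 moved a count or share and 4 turned a direction. The turned ones are all H3K27me3: the share in the domain, Rb1L/L against WT, was 0.10 (log2) with equal numbers of top-scoring peaks and 0.13 without WT replicate 1 (leaving out each replicate gave −0.31 to 0.13), and the density against the flanks was −0.11 with the lower flank alone and −0.07 with flanks of 500 kb. For TFIIIC, leaving out each replicate gave a share difference of 0.06 to 0.31 and a log2 density ratio of −0.52 to −0.44; for H3K27me3 the density ratio was 0.42 to 0.52. Merging peaks up to 1 kb apart raised the share of regions found in every library to 32.9% for TFIIIC and 13.6% for H3K27me3, as it leaves fewer regions. CAP-D3 peaks of Rb1L/L with a CAP-H2 peak within 1 kb were 100% (6 of 6). Window calls by limma were 1 for TFIIIC at a score of at least 100, 2 for H3K27me3 by covered length, and 25 to 3709 for TFIIIC without 1 replicate (0 for H3K27me3 without any), where a lone sample is assumed to vary like the other group; the cause was not tested. With score, pseudocount and window width changed, 0 windows of the domain were called for either antibody.

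The libraries share replicate numbers, but no label says that a number marks a batch or culture. Input titles join the condensin II libraries to H3K27me3 replicate 2 in WT and to replicate 1 in Rb1L/L. Deviations of same-numbered libraries from their group means correlate at 0.20 (H3K27me3) and 0.10 (TFIIIC), with 2 pairs, so the numbers were not taken as pairing. With a replicate block limma called 28 H3K27me3 and 341 TFIIIC windows over the genome, 0 in the domain for each.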
